A study of Mus musculus with 2 samples.

Results

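The 10 genes described here form the core of the canonical Wnt pathway: the coreceptor Lrp6, beta-catenin (Ctnnb1), the destruction complex genes Apc, Axin1, Axin2 and Gsk3b, and the TCF/LEF transcription factors Tcf7, Tcf7l1, Tcf7l2 and Lef1. They were chosen by name, and all 10 were found among the 42462 gene rows that could be matched to a GENCODE symbol, 21474 of them protein-coding. Total RNA was depleted of ribosomal RNA, made into libraries with the ScriptSeq kit from 100 ng per library, and sequenced. The cells were hematopoietic stem cells (HSC), from which all blood lineages of the bone marrow arise. There was 1 group of 2 biological replicates, both from adult male C57BL/6J mice of 5 to 6 weeks, with no treatment or allele named in the labels. Both carry the same donor entry but separate biosample entries, and the labels state neither the number of animals nor the sorting gate. The spread between the replicates may be partly technical.

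In the canonical pathway, a Wnt protein binds a Frizzled receptor together with Lrp5 or Lrp6 at the cell surface. Without that signal, a complex built on Axin and Apc holds beta-catenin while casein kinase 1 and Gsk3 phosphorylate it, which marks it for destruction by the proteasome. With the signal, beta-catenin is spared, enters the nucleus and binds TCF/LEF factors at target genes such as Axin2, which feeds back on the pathway. These steps act on protein, so the RNA levels below do not measure the activity of the pathway.

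The libraries summed to 27901074 counts (replicate 1) and 48490188 (replicate 2). Where no count was seen, counting error alone allows 3, which is 0.108 CPM in replicate 1 and 0.0619 CPM in replicate 2, CPM being counts scaled to the library total. Levels are given in TPM, which takes the effective length of each transcript into account, so that genes can be compared. Each TPM value comes with an interval that the authors deposited beside it. A gene was counted as detected at 1 TPM or more in both libraries, and protein-coding genes held only 16.3% and 20.3% of all TPM in replicates 1 and 2. Of 10 stem and progenitor markers, 9 were detected, among them Kit, Procr, Hlf and Mecom. The exception was Slamf1 at 0.42 and 0.43 TPM. Cd34 stood at 145 and 166 TPM and Flt3, a receptor best known from multipotent progenitors, at 57.9 and 53.2. All 12 neutrophil markers were detected too, with a summed level of 3194 TPM in replicate 1 and 1219 in replicate 2.

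Of the 10 core genes, 5 were detected: Lrp6, Ctnnb1, Apc, Axin1 and Gsk3b. Among all protein-coding genes 44.0% were detected. The genes from the receptor to the destruction complex were present, while all 4 TCF/LEF factors and Axin2 lay under 1 TPM in both libraries. Since the rest all lay under 1 TPM, the cut itself keeps the groups apart, and only the width of the gap is informative. The lowest detected value was 6.31 TPM (Gsk3b, replicate 1). The highest value among the rest was 0.59 TPM (Tcf7l2, replicate 2), below its own deposited interval of 0.653 to 1.04. In bulk RNA, expression in fewer cells and less RNA per cell cannot be told apart. By counts, 9 of the 10 genes had at least 10 in both libraries, as had 12093 of all 21474 protein-coding genes. Axin2 was the exception, with 8 in replicate 1. Most of the low genes were thus measured at a low level rather than not seen. With TPM rescaled over protein-coding genes, 7 of 10 reached 1, Tcf7l2 and Tcf7 joining the others. The 44.0% refers to TPM before rescaling and is no background for that count.

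**Figure D1:**
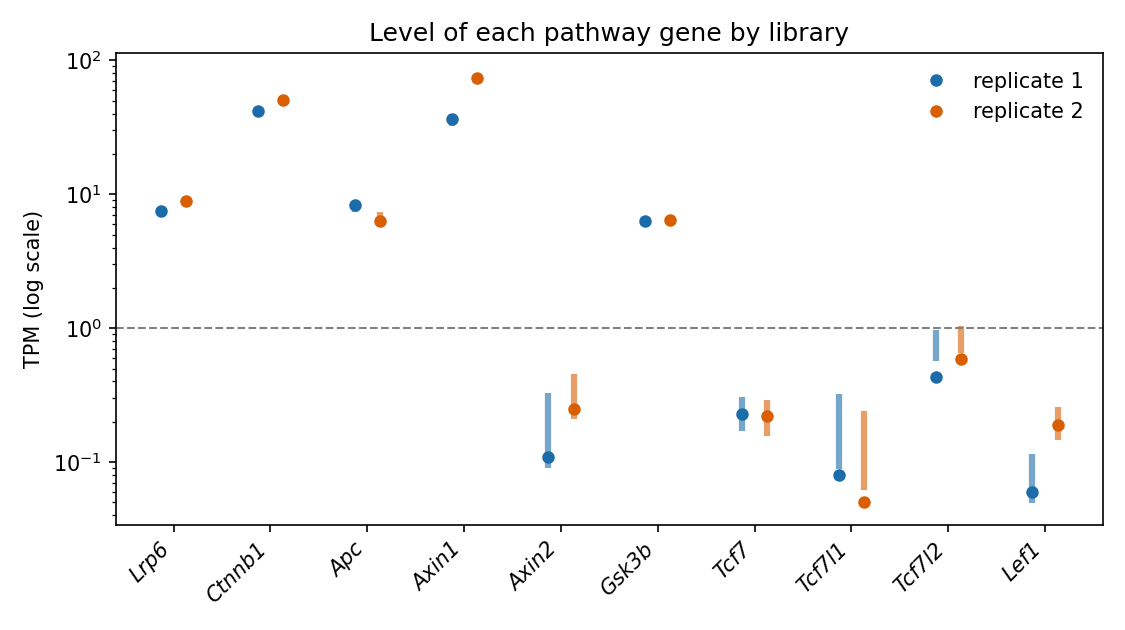
TPM of the 10 core genes in replicates 1 and 2 on a log scale; points are the deposited values, vertical lines the deposited intervals, and the dashed line marks 1 TPM. The 5 detected genes lie at 6.31 TPM or more in both libraries and the other 5 at 0.59 TPM or less.

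By mean TPM the order was Axin1, Ctnnb1, Lrp6, Apc, Gsk3b, Tcf7l2, Tcf7, Axin2, Lef1 and Tcf7l1. A pair of genes was called ordered where the same gene was higher in both libraries, with no overlap of the deposited intervals in either. Of the 10 pairs among the detected genes, 7 were ordered, beside 80.6% of all pairs of detected protein-coding genes. Of all 45 pairs of core genes 36 were ordered and 9 were not. Many of the 45 set a detected gene against an undetected one. All of those were ordered, which the 1 TPM cut favours. The 80.6% covers pairs of detected genes only and is no background for the 36. Among neighbours in the order, Ctnnb1 lay above Lrp6, Gsk3b above Tcf7l2 and Tcf7l2 above Tcf7. Axin1 and Ctnnb1, Lrp6 and Apc, and Apc and Gsk3b were not ordered, each pair changing direction between the libraries. For Apc and Gsk3b the change rests on 6.35 against 6.45 TPM in replicate 2. That Apc value lay below its own deposited interval of 6.39 to 7.3. By posterior mean TPM, another deposited estimate, Apc was higher in both libraries, at 8.2 against 6.37 and 6.82 against 6.47. No pair among Tcf7, Axin2, Lef1 and Tcf7l1 was ordered either, as their intervals overlapped in at least 1 library or the direction changed. Axin2 was nevertheless above Lef1 in TPM in both libraries, by 0.33 ± 0.09 on the log2 scale (SD, n = 2; TPM + 0.1). Tcf7 lay above Tcf7l1 by 0.98 ± 0.15. By counts Axin2 over Lef1 turned to -0.92 ± 0.23, and over protein-coding transcripts it was -0.07 ± 0.1. Tcf7 over Tcf7l1 kept its direction, at 1.26 ± 0.14 and 0.98 ± 0.15.

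Lrp6 (chromosome 6, 134446476 to 134566965, minus strand, GRCm38) encodes the coreceptor that carries the Wnt signal across the membrane. It stood at 7.45 TPM in replicate 1, from 5773 counts, and at 8.91 TPM in replicate 2, from 10517 counts. The libraries were close, at 8.18 ± 1.03 TPM (SD, n = 2). Nearly all of it came from 1 protein-coding transcript, Lrp6-201, with 97.0% and 99.7% of the TPM of the gene. Lrp5, the other Wnt coreceptor, had 3.88 and 4.50 TPM and lay below Lrp6 by 0.95 ± 0.03 on the log2 scale (SD, n = 2; TPM + 0.1), with the intervals apart in both libraries.

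Ctnnb1 (chromosome 9, 120929216 to 120960507, plus strand) encodes beta-catenin, the transcriptional coactivator of the pathway and a part of cadherin junctions. It was read at 41.7 TPM in replicate 1, from 11316 counts, and at 50.9 TPM in replicate 2, from 20722 counts. That placed it at percentiles 97.7 and 97.4 of protein-coding genes, and both libraries lay above every other core gene except Axin1. Its mean TPM was 5.66 times that of Lrp6 and 7.25 times that of Gsk3b. The related Jup, or gamma-catenin, had 1.60 and 0.43 TPM.

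Of 14 annotated Ctnnb1 transcripts, 2 carried most of the signal, and both encode a reading frame of 2343 nucleotides. Ctnnb1-214 held 76.9% of the TPM of the gene in replicate 1 and 84.9% in replicate 2. Ctnnb1-201 held 17.1% and 12.7%. The share of the gene in transcripts outside the protein-coding class was 5.27% and 2.42%. Ulk4, on the opposite strand and overlapping Ctnnb1, had 73 and 33 counts. Ctnnb1-214 has 3422 nucleotides in the authors' annotation and 2702 in the GENCODE release used here for coordinates. The RefSeq start at 120933400 equals the start of Ctnnb1-201. That of Ctnnb1-214 lies downstream at 120933572, with a further RefSeq start 6 bases away at 120933578. The 250 bases before the first of these starts are shown because both transcripts follow it (RefSeq, GRCm38.p6, chr9:120933150-120933399, plus strand; capitals mark the 50 bases next to the start):
Ctnnb1 upstream: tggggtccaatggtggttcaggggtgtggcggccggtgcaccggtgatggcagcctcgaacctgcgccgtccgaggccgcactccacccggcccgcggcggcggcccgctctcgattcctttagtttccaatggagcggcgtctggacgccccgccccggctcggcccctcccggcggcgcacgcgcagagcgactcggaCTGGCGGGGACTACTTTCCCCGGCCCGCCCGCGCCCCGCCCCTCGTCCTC

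The destruction complex genes were not alike: Apc, Axin1 and Gsk3b were detected and Axin2 was not. Gsk3b (chromosome 16, 38089001 to 38246084, plus strand), a kinase that phosphorylates beta-catenin, had 6.31 TPM in replicate 1 and 6.45 TPM in replicate 2, from 3603 and 6021 counts. In TPM its libraries differed by 0.03 on the log2 scale, the least of the detected core genes, with overlapping intervals and 6.38 ± 0.099 TPM (SD, n = 2). Over protein-coding transcripts of at least 1000 nucleotides they differed by 0.21, more than those of Apc at 0.12. Gsk3b-201, a protein-coding transcript of 8303 nucleotides, held 75.5% and 85.9%, and the retained-intron transcript Gsk3b-203 held 24.5% and 14.1%. The paralog Gsk3a, which can take the same role, had 7.43 and 12.9 TPM and lay above Gsk3b in both libraries, by 0.23 in replicate 1 and 0.99 in replicate 2 on the log2 scale. By counts that order turned, with 3603 for Gsk3b against 1327 for Gsk3a in replicate 1 and 6021 against 3386 in replicate 2, as counts are not divided by length.

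Apc (chromosome 18, 34220924 to 34322552, plus strand) encodes the large scaffold that binds beta-catenin and Axin. It had 8.26 TPM in replicate 1, from 4395 counts, and 6.35 TPM in replicate 2, from 8450 counts. Replicate 2 was the lower in TPM but the higher in CPM, at 174 against 157. The mean effective length assigned to the gene was 6161 nucleotides in replicate 1 and 10254 in replicate 2. Transcripts with counts numbered 8 of 9 in replicate 1 and 3 of 9 in replicate 2, and the share of the long protein-coding Apc-203 was 35.7% and 71.7%. The nonsense-mediated decay transcript Apc-205 took 16.0% in replicate 1 and 0 in replicate 2, and the retained-intron transcript Apc-208 took 13.7% and 14.1%. Summed over protein-coding transcripts of at least 1000 nucleotides, Apc had 5.00 and 5.46 TPM. The gene Gm10548, a transcribed pseudogene on the opposite strand within Apc, had 29 counts in replicate 1 and 0 in replicate 2. The paralog Apc2 lay far below, at 0.12 and 0.06 TPM.

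Axin1 (chromosome 17, 26138688 to 26195811, plus strand), the scaffold that brings Gsk3 to beta-catenin, had the highest mean TPM of the core genes, but most of it rested on 1 short transcript. The gene had 36.3 TPM in replicate 1 and 73.2 TPM in replicate 2, from 2058 and 3146 counts, fewer counts than Apc, Gsk3b or Lrp6. The retained-intron transcript Axin1-205, 291 nucleotides long, held 74.2% of the TPM in replicate 1 and 82.6% in replicate 2. In counts it held only 11.9% (246 of 2058) and 17.2% (541 of 3146). Mean fragment lengths were 193 and 245 nucleotides by the difference between length and effective length, which left Axin1-205 an effective length of 106 and 69.

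Axin1-205 is shown because the level of the gene turns on it (GENCODE M21, chr17:26188153-26188795, plus strand, spliced from exons at 26188153 to 26188221 and 26188574 to 26188795). Lower case marks the 240 bases that are coding exon of Axin1-201, and capitals the 51 bases of the following intron, at 26188745 to 26188795, the part that is in no other Axin1 transcript of that annotation:
Axin1-205: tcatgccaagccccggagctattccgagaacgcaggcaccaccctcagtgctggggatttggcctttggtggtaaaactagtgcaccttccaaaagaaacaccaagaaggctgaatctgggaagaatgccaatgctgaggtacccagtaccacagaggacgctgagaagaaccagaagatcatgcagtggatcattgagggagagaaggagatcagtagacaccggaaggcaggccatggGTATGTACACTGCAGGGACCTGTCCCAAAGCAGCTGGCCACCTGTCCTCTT

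Without that transcript Axin1 had 9.36 TPM in replicate 1 and 12.7 in replicate 2, still above Apc and Gsk3b but well below Ctnnb1. Over all protein-coding transcripts Ctnnb1 exceeded Axin1 by 2.01 ± 0.08 on the log2 scale (SD, n = 2; TPM + 0.1), and by counts by 2.59 ± 0.18, whereas with all transcripts the pair was not ordered. Over protein-coding transcripts of at least 1000 nucleotides (Axin1-201, Axin1-202 and Axin1-203), it had 6.97 TPM in replicate 1 and 6.28 TPM in replicate 2. The same sum was 4.76 and 5.54 TPM for Gsk3b, 5.00 and 5.46 for Apc, 7.22 and 8.88 for Lrp6, and 39.2 and 49.7 for Ctnnb1. Axin1 thus stood between Lrp6 and the other 2 destruction complex genes on that scale, whereas with all transcripts it stood above Lrp6. Its counts were also split differently between similar coding transcripts: Axin1-202 had 831 counts in replicate 1 and 0 in replicate 2, while Axin1-203 had 325 and 1375. The shorter protein-coding Axin1-204, of 465 nucleotides, added 2.39 and 6.45 TPM. Of the detected core genes, Axin1 alone had over 50% of its TPM outside the protein-coding class in both libraries, as had 9.32% of detected protein-coding genes with 2 or more transcripts.

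**Figure D2:**
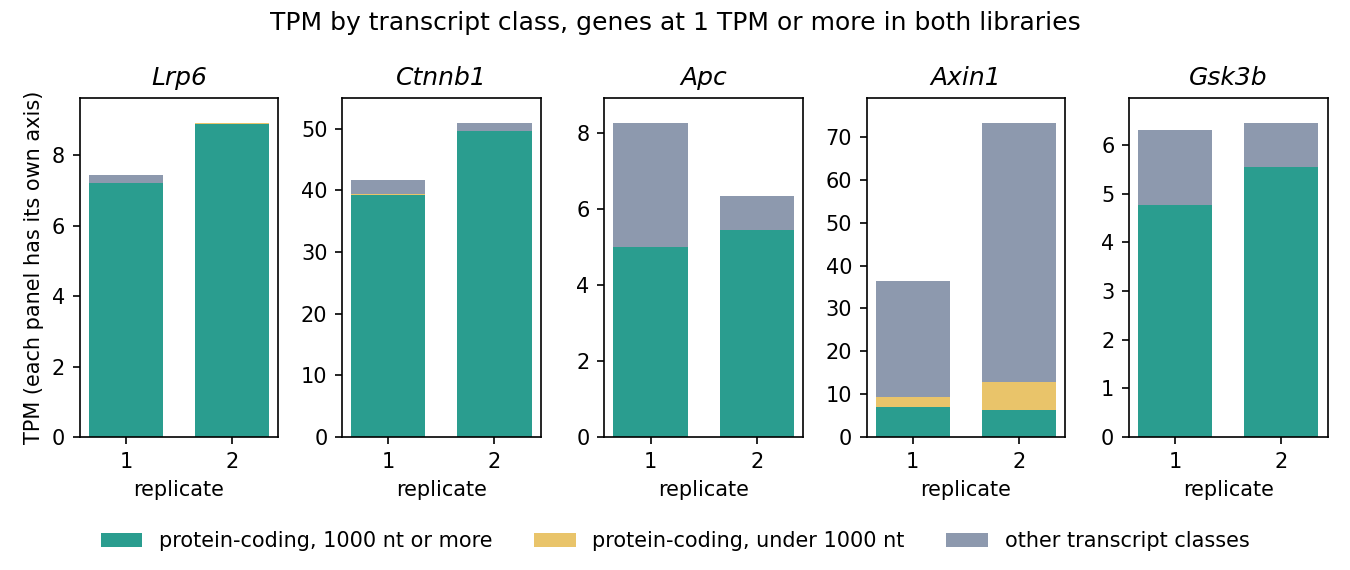
TPM of the 5 detected core genes in each replicate, stacked by transcript class; every panel starts at 0 and has its own axis. Long protein-coding transcripts make up nearly all of Lrp6 and Ctnnb1, while transcripts outside the protein-coding class hold 74.2% and 82.6% of Axin1 and its short protein-coding transcript a further 2.39 and 6.45 TPM.

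Axin2 (chromosome 11, 108920349 to 108950783, plus strand), the inducible relative of Axin1 that is widely used as a readout of beta-catenin signaling, had 0.11 and 0.25 TPM from 8 and 26 counts. All of those counts were assigned to Axin2-205, a processed transcript of 1051 nucleotides that shares 613 with coding exons, and none to the 5 protein-coding Axin2 transcripts. That assignment is loose: by the posterior mean Axin2-205 held only 50.1% of the TPM of the gene in replicate 1 and 78.0% in replicate 2. Axin1 exceeded Axin2 by 7.57 ± 0.19 on the log2 scale with all transcripts (SD, n = 2; TPM + 0.1). An antisense gene, Gm11670, overlaps Axin2 and had 0 counts. The 250 bases before the start of Axin2-201 are shown because this gene is the usual readout and its protein-coding transcripts were assigned no counts (RefSeq, GRCm38.p6, chr11:108920099-108920348, plus strand; capitals mark the 50 bases next to the start):
Axin2 upstream: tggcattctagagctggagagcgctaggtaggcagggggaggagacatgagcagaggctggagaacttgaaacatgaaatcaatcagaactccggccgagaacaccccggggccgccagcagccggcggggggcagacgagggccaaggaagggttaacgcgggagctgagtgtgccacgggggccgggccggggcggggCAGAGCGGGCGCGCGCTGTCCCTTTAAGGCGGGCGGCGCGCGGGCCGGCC

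The 4 TCF/LEF factors, the DNA-binding partners of beta-catenin, were all low. Summed, they had 0.80 TPM in replicate 1, from 210 counts, and 1.05 TPM in replicate 2, from 309 counts. Ctnnb1 was 52.1 and 48.5 times that sum. With posterior mean TPM, another estimate the authors deposited, the sums were 1.26 and 1.40 TPM and Ctnnb1 was 33.1 and 36.4 times as high.

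Tcf7l2 (chromosome 19, 55741820 to 55933654, plus strand), which encodes TCF4, was the highest of the 4, at 0.43 TPM in replicate 1 and 0.59 TPM in replicate 2, from 128 and 197 counts. Both values lay below their own deposited intervals of 0.564 to 0.967 and 0.653 to 1.04, and the posterior means were 0.75 and 0.84. It was above Tcf7, Tcf7l1 and Lef1 in both libraries with intervals apart. Its leading transcript among 22 was the protein-coding Tcf7l2-202, at 69.6% and 54.8%, but only 20.2% and 20.1% by the posterior mean, so its transcript shares are loose. The retained-intron transcript Tcf7l2-207 held 18.5% and 13.6%. The sense-intronic RNA Ppnr, within Tcf7l2, had 50 and 19 counts.

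Tcf7 (chromosome 11, 52252371 to 52283014, minus strand) encodes TCF1, best known from T cells. It had 0.23 TPM in replicate 1 and 0.22 TPM in replicate 2, from 45 and 49 counts. The level was alike in the libraries in TPM, but in CPM it was 1.61 and 1.01. The 2 annotated transcripts both have a reading frame of 909 nucleotides and exchanged the lead: Tcf7-201 held 100% and 33.0%, and Tcf7-202 held 0 and 67.0%. Tcf7l1 (chromosome 6, 72626378 to 72789254, minus strand), which encodes TCF3 and often acts as a repressor, had 0.08 and 0.05 TPM from 20 and 19 counts, all assigned to Tcf7l1-201, which held only 40.5% and 36.0% by the posterior mean. Those TPM values too lay under their deposited intervals, which reached 0.32 and 0.242.

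Lef1 (chromosome 3, 131110471 to 131224356, plus strand), a relative of TCF1 used in lymphoid development, had 0.06 TPM in replicate 1 and 0.19 TPM in replicate 2, from 17 and 44 counts. Almost no count was assigned to a protein-coding transcript. In replicate 1, 14 of 17 counts lay in the retained-intron transcript Lef1-205 and 3 in the protein-coding Lef1-204. In replicate 2 all 44 lay in the retained-intron transcript Lef1-206. Lef1-205 and Lef1-206 start at 131112806 and 131112797, next to an internal RefSeq start at 131112791 and downstream of the first GENCODE start at 131110471. The 250 bases before that internal start are shown for that reason (RefSeq, GRCm38.p6, chr3:131112541-131112790, plus strand; capitals mark the 50 bases next to the start):
Lef1 upstream: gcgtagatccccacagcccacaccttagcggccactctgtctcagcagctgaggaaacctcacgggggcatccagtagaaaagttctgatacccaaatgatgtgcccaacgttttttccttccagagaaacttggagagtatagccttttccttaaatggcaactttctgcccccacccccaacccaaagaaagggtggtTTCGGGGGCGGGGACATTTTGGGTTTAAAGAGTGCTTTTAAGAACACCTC

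The low levels of Tcf7 and Lef1 were set beside T cell markers, since T cells express both highly. Of 16 T cell markers 3 were detected: Cd3g, Cd4 and Lat, the last also used in other blood cells. Trac, Cd8a and Cd8b1 had 0 counts in both libraries, and Cd3e had 2 and 6 counts. Others were read at a low level, and 11 of the 16 had at least 10 counts in both libraries. Cd247 had 149 and 138 counts, Thy1 36 and 148, and the T cell receptor gene Trbc1 97 and 28, the last at 2.06 and 0.44 TPM. The summed level of the list was 15.7 TPM in replicate 1 and 13.3 in replicate 2. Whether these T cell transcripts take part in the Tcf7 and Lef1 counts was not tested.

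The starts of 7 core genes matched 13 RefSeq windows, each from 250 bases before to 50 after a start. These windows were searched on both strands for 4 motifs of the TCF/LEF binding type. The first was CTTTGAT, and the variant with a final A was CTTTGAA. The remaining motifs have T at the next to last place, and are CTTTGTA in 1 case and CTTTGTT in the other. They share their first 5 letters and differ in the last 2, so only 1 of them can match at a given place on a strand. A match was found in 2 windows: 1 of Lef1 starting at 131156044 held CTTTGTA, and 1 of Tcf7l2 starting at 55895071 held CTTTGTT. Both lie at internal starts, and none of these letters occurred in the windows of Ctnnb1, Axin2, Gsk3b, Tcf7 or Tcf7l1. Of 32851 windows of the same length in the table, 16.9% held at least 1 of the motifs. The window of Ctnnb1 at 120933150 was rich in G and C, at 75.3%, beside a median of 52.7% over the table, and the Lef1 window at 131112541, whose upstream bases are printed above, had 51.7%.

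The leading transcript was the same in both libraries for all 5 detected core genes, beside 75.0% of detected protein-coding genes with 2 or more transcripts. Of the other 5 core genes 3 kept theirs, which makes 8 of the 10. The exceptions were Tcf7 and Lef1, both under 50 counts per library. Where both libraries gave a gene 100 counts or more, which held for 6 of the 10, all 6 had the same leading transcript. All of this is by share of TPM. Of the 10 genes, 7 kept their leading transcript by share of counts, 7 by posterior mean and 6 over protein-coding transcripts only. By counts, Axin1 was led by Axin1-202 in replicate 1 (40.4%) and Axin1-203 in replicate 2 (43.7%). By posterior mean, Tcf7l2 was led by Tcf7l2-202 in replicate 1 (20.2%) and Tcf7l2-217 in replicate 2 (23.9%).

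Between the replicates, 1 detected core gene, Axin1, differed by over 2-fold in TPM with intervals apart, and it was higher in replicate 2. Among the 9900 protein-coding genes with a mean of at least 1 TPM, 6.54% differed in that direction. The median of those genes was itself shifted by 0.29 on the log2 scale in TPM and by 0.05 in CPM. Ctnnb1 differed by 0.29 and Lrp6 by 0.26, at that median, while Gsk3b differed by 0.03 and Apc by -0.37. Axin1 differed by 1.01 in TPM, 0.72 more than the median, but by -0.18 in CPM and by -0.15 over long protein-coding transcripts. Over all protein-coding transcripts, the short Axin1-204 included, it was 0.44, and with TPM rescaled over protein-coding genes 0.69. The direction thus turned in CPM and over long protein-coding transcripts, and the difference was smaller but kept its direction on the other 2 scales. With 2 libraries of 1 group no test between groups was possible, and the smallest exact two-sided sign-flip p is 0.5. The erythroid markers had summed levels of 125 and 256 TPM, and the part of such differences in cell makeup, or of the neutrophil sums above, was not tested.

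**Figure D3:**
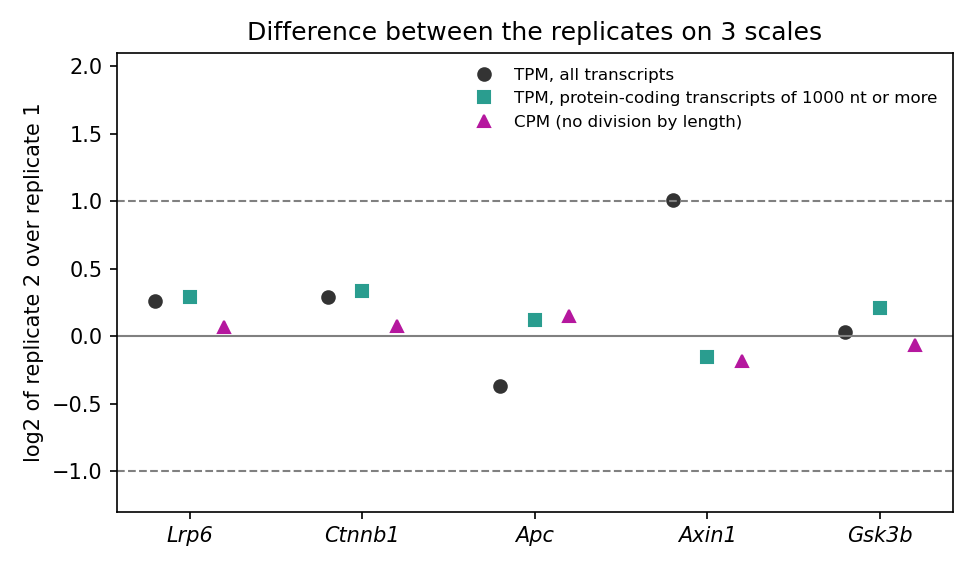
Log2 of replicate 2 over replicate 1 for the 5 detected core genes, with 0.1 added to each value; circles are TPM over all transcripts, squares TPM over protein-coding transcripts of at least 1000 nucleotides, triangles CPM, and dashed lines mark a 2-fold difference. Axin1 reaches 1.01 in TPM but -0.15 and -0.18 on the other scales.

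Other genes of the pathway, 143 in 10 lists, were read the same way, and 61 (42.7%) were detected, close to the 44.0% of all protein-coding genes. The lists differed widely. Partners of the destruction complex (16 of 18) and nuclear partners (17 of 19) were mostly detected, against 0 of 19 ligands and 1 of 14 secreted antagonists. Over the 143 genes the median of the mean TPM was 0.63, beside 0.545 for all protein-coding genes.

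No Wnt ligand was detected: 0 of 19 reached 1 TPM in both libraries, and 15 had 0 counts in both. The highest by mean TPM was Wnt10b, with 0.17 TPM in replicate 1 and 0.58 TPM in replicate 2, from 29 and 101 counts. Not every 0 is firm: the deposited intervals reached 0.67 and 0.708 TPM for Wnt5a, 0.658 and 0.728 for Wnt7a, and 0.645 and 0.827 for Wnt16. Their posterior means in replicate 1 were 0.31, 0.27 and 0.23 TPM, above the 0.18 of Wnt10b. In replicate 2 they were 0.32, 0.30 and 0.28, below its 0.58. Wnt5b had 23 and 0 counts, Wnt9a 0 and 25, and Wnt4 7 and 0, so each was seen in 1 library only. Of the ligand secretion genes, Wls, the carrier that takes Wnt proteins to the surface, had 8.38 and 7.90 TPM. Porcn, which adds their lipid, had 0.16 and 0.54. Stromal cells of the marrow are a known source of Wnt proteins, and of 10 stromal markers only Pdgfrb was detected, with Col3a1, Bglap, Sp7 and Alpl at 0 counts. The 0 of Alpl is not firm, since its deposited intervals reached 3.15 and 6.97 TPM and its posterior means were 1.18 and 2.43 TPM.

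Of 15 receptors and coreceptors beside Lrp6, 4 were detected: Lrp5, Fzd6, Ptk7 and Ryk. Fzd6 was the highest Frizzled, at 3.24 and 2.91 TPM. Ptk7, a receptor-like pseudokinase of polarity signaling, had 2.46 and 1.42 TPM, and the Wnt-binding pseudokinase Ryk had 1.22 and 1.49. By counts 13 of the 15 had at least 10 in both libraries, so most receptors were read at a low level.

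Secreted antagonists and R-spondins were scarce. Of 14 antagonists and their receptors 1 was detected, the Dkk coreceptor Kremen1, at 1.33 and 1.28 TPM, and 7 had 0 counts in both libraries. Sfrp1 had 0.19 and 0.17 TPM, Sfrp4 0.01 and 0.21, and Dkk3 0.09 and 0. Of 9 genes of R-spondin signaling and receptor turnover, only Znrf3, a ubiquitin ligase that removes Frizzled receptors, was detected, at 1.12 and 1.37 TPM. Lgr4, an R-spondin receptor, had 1.35 TPM in replicate 1 and 0.15 in replicate 2, from 189 and 95 counts. Rspo1 had 9 and 0 counts, and Lgr5 had 0.13 and 0.07 TPM.

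Of 18 partners of the destruction complex, 16 were detected, with a median of the mean TPM of 7.91. The highest was Csnk1a1, the casein kinase that primes beta-catenin, at 45.6 TPM in replicate 1 and 65.3 TPM in replicate 2. Csnk1d had 15.8 and 32.0 TPM, the phosphatase subunit Ppp2ca 19.3 and 28.2, and Csnk1g2 17.2 and 25.1. Apc2 and Dvl3 were the 2 not detected, Dvl3 at 0.76 and 0.64 TPM.

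Of 19 nuclear partners, 17 were detected, with a median of the mean TPM of 5.41. The corepressor Aes had 23.0 and 25.2 TPM, the histone deacetylase Hdac1 17.1 and 21.6, the chromatin remodeller Smarca4 11.4 and 17.7, and the Groucho corepressor Tle3 7.13 and 21.5. Most genes of this list, not all of which bind TCF/LEF factors directly, were thus detected, while the TCF/LEF factors themselves lay under 1 TPM. The exceptions were the coactivators Bcl9l, at 0.73 and 1.03 TPM, and Pygo1, with 8 and 0 counts.

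Of 13 genes known as beta-catenin targets in some tissues, 5 were detected: Jun, Cd44, Myc, Id2 and Ccnd1. Jun had 65.6 and 95.6 TPM, Cd44 27.4 and 36.9, Myc 9.44 and 15.2, and Id2 4.53 and 5.62. All 5 have many other regulators, so their level does not measure the activity of beta-catenin. Nkd2, Sp5, Mmp7 and Cdx1 had 0 counts in both libraries, and Nkd1, a feedback gene like Axin2, had 20 and 0 counts.

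Among 11 catenins and cadherins, Ctnna1, Ctnnd1 and Ctnnal1 were detected. Ctnna1, which links beta-catenin to actin, had 7.86 and 10.7 TPM, and Ctnnd1, or p120-catenin, had 5.23 and 5.04. Ctnnal1, an alpha-catenin relative, had 2.41 TPM in replicate 1, from 532 counts. No cadherin of this list was detected: Cdh1 had 0.14 and 0.12 TPM and Cdh2 had 15 and 0 counts. Of 23 genes of the beta-catenin independent branch 13 were detected, led by the GTPases Cdc42 (88.2 and 99.5 TPM), Rhoa (40.6 and 65.6) and Rac1 (15.9 and 18.0), and the kinase Mapk8 (10.7 and 17.5), all with many roles outside Wnt signaling.

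**Figure D4:**
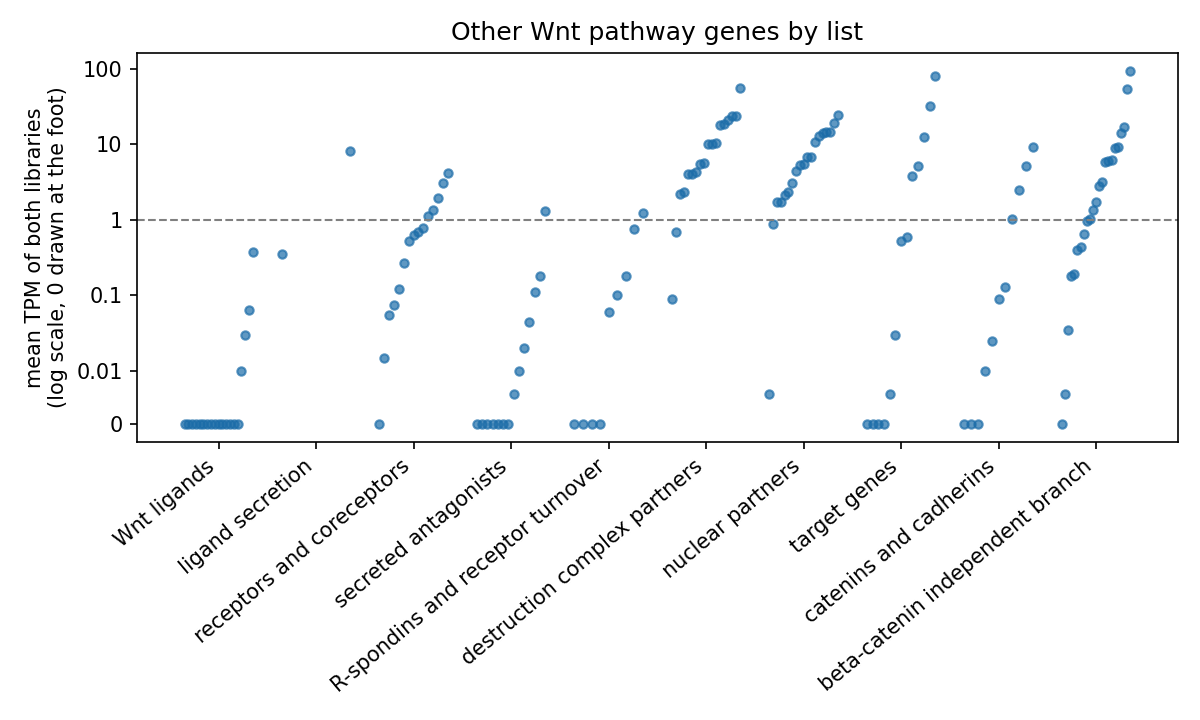
Mean TPM of both libraries for each of the 143 other pathway genes, grouped in 10 lists, on a log scale with 0 drawn at the foot; 1 point is 1 gene and the dashed line marks 1 TPM. No Wnt ligand reaches the line, against 16 of 18 partners of the destruction complex and 17 of 19 nuclear partners.

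Of the 64 listed genes with a mean of at least 1 TPM, 4 were over 2-fold higher in replicate 2 with intervals apart: Csnk1d, Tle1, Tle3 and Tle6. That is about the share of all genes so tested, 6.54%. Only Jup was lower, beside 2.07% of all genes so tested. Tle3 differed by 1.58 on the log2 scale in TPM but by 0.06 in CPM, and Csnk1d by 1.02 and 0.14. Tle1 had 2.72 and 7.89 TPM and differed by 0.89 in CPM, and Tle6 differed by 1.36 and 0.98. Over long protein-coding transcripts none of the 4 differed by over 2-fold: the differences were 0.14 for Csnk1d, 0.14 for Tle1 (1.32 and 1.47 TPM), 0.31 for Tle3 and 0.53 for Tle6. Jup differed by -1.68 in TPM, -1.63 in CPM and -1.18 over long protein-coding transcripts, so it was lower in replicate 2 on all 3 scales.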

How the data were processed

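Total RNA-seq tables of 2 HSC libraries were used, on mm10 with GENCODE M4 per the labels' sample notes; aligner, counter and use of strand are not stated there. For genes and transcripts the authors deposited expected counts, TPM, FPKM, the percent of gene TPM per transcript, and interval bounds, treated as a score because their level is not stated. Names, classes and coordinates were taken from GENCODE M21; 42462 of 43346 Ensembl IDs matched, and 70 of 77 core transcripts had the same length in both releases. CPM, ratios with 0.1 added and sums by transcript class were computed with Python 3.11.15 and pandas 2.3.3. Only the calls of genes apart between replicates and of ordered pairs were tested on simulated data.

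The core genes and lists were chosen with earlier results of these data known. Named beside the core were the 4 highest genes of each list by mean TPM, genes apart between replicates, the paralogs Gsk3a, Lrp5, Apc2 and Jup, and transcripts that led or held at least 10% in both libraries. Chosen after their values were seen were Axin1-202, Axin1-203, Axin1-204, Apc-205, Dvl3, Bcl9l, Pygo1, Ccnd1, Nkd1, Cdh1, Cdh2, genes at 0 counts, single markers, and all sums over protein-coding transcripts, CPM, and rescaled replicate ratios of single genes.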

Additional observations from a re-analysis of the deposited data

How the results depend on the processing

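No paired analysis was possible because the series has 1 group of 2 libraries. With at least 10 expected counts in both libraries, 9 core genes were detected instead of 5, beside 12093 of 21474 protein-coding genes. The other 9 alternatives gave 5 to 7. No core gene differed by over 2-fold between replicates (0 instead of 1) with TPM rescaled over protein-coding genes, median-of-ratios size factors, a pseudocount of 1, CPM, protein-coding transcripts, or those of at least 1000 nucleotides. With a pseudocount of 1 Axin1 just missed the limit, at 0.99, and with rescaled TPM and over protein-coding transcripts it kept its direction, at 0.69 and 0.44. The log2 ratio for Axin1 between replicates turned from 1.01 to -0.18 in CPM, -0.19 with size factors and -0.15 over long protein-coding transcripts. Ctnnb1 over Axin1, not ordered at -0.16, was 2.59 by counts, 2.01 over protein-coding and 2.72 over long protein-coding transcripts. By counts not divided by length, Lrp6 over Axin1 turned from -2.65 to 1.61, Apc over Axin1 from -2.82 to 1.26, Axin1 over Gsk3b to -0.87, and Gsk3b over Gsk3a from -0.61 to 1.14. Over long protein-coding transcripts Lrp6 over Axin1 was 0.27. Leaving out either library gave 5 core genes, 63 to 65 listed pathway genes (61 with both) and 38 to 39 ordered pairs (36 with both). These calls ask for both libraries, so leaving 1 out can only keep or raise the numbers. Of the other recomputed log2 ratios between genes 176 moved by less than 1 SD and 162 by more. Those 176 include ratios with 1 library left out. Apart from rounding, such ratios stay within 1 SD of a mean of 2 libraries by construction, so the 176 do not measure stability. For replicate ratios the numbers were 32 and 35, for transcript shares 32 and 5. Counts were few for Axin2, Tcf7, Tcf7l1 and Lef1, at 8 to 49 per library.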
